A study of Mus musculus with 2 samples.

Results

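The 8 genes Mrc1, Stab1, Cd163, Msr1, Cd36, Mertk, Axl and Gas6 were followed across the immune cells of B16 melanoma tumors. They were chosen by symbol as receptors of scavenging and of the uptake of dying cells, with Gas6 as the ligand of the last 2 receptors, and they are 8 of the 31253 features in the count tables. Scavenger receptors are surface proteins of macrophages that bind and take up modified lipoproteins, glycoproteins with exposed sugars, haemoglobin complexes and other debris. Efferocytosis is the uptake of dying cells, which show phosphatidylserine on their surface. Gas6 binds phosphatidylserine with one end and the receptor tyrosine kinases Mertk and Axl (of the TAM family, named after Tyro3, Axl and Mertk) with the other, and so bridges the dying cell and the macrophage. In tumors these receptors are textbook markers of macrophages that clear cells and lipids.

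The cells are live CD45+ cells from B16 tumors, sequenced one by one with a droplet-based 3′ kit. B16 is a mouse melanoma cell line, injected here into the flank. In the shSdc1 group the injected B16 cells carried a short hairpin RNA against Sdc1, which encodes the surface proteoglycan syndecan-1, and in the shRFP group they carried a control hairpin. All mice of both groups were wild type, had been vaccinated with irradiated B16-GM-CSF cells in the other flank 12 days before the injection, and had their tumors taken 16 days after it. A genotype label of the shSdc1 sample reads knock-out, whereas its title and the growth protocol give a hairpin carried by the injected B16 cells. The hairpin sits in tumor cells, which are not the cells sorted, so the 76 (shSdc1) and 102 (shRFP) UMIs of Sdc1 in the kept cells do not check it. Of the macrophage states described below, the hypoxia state, where melanoma transcripts were also found, held 20 and 27 of these UMIs. The inflammatory state held 11 in shSdc1 and 47 in shRFP, the Retnla state 11 and 2, and the Gpnmb/Gdf15 state 7 and 11. The source of the Sdc1 UMIs was not determined. Each group was 1 library from 6 pooled tumors. There is therefore no replicate and no test, and every interval given is a 95% exact interval of counting error only, which says nothing of how tumors or mice vary. An upper limit for a level of 0 is the level that 3 UMIs would give.

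The shSdc1 library held 4370725 UMIs (molecules counted by their unique identifier) in 5902 barcodes and the shRFP library 4255928 in 5786. After the filter on genes and mitochondrial UMIs and the removal of likely doublets, 5313 (shSdc1) and 4983 (shRFP) cells were kept, with a median of 593 and 650 UMIs. Ptprc, which encodes CD45, had 2294 and 1747 UMIs in them. The clustering, which left out the 8 genes and the related lists below, gave 2545 (shSdc1) and 2853 (shRFP) monocyte/macrophage-like cells in 15 clusters. These were grouped in 8 states by the marker list with the best score. The markers that named classes and states held no member, but they included some genes of the related lists, among them Apoe, Trem2 and Cd68. The dendritic cells fell into cDC1-like (314 and 266), cDC2-like (118 and 256) and migratory DC-like (147 and 126) cells. Levels are CPM, a gene's UMIs over all UMIs of the cells summed and scaled to 1e+06, and ratios are shSdc1 over shRFP. Because 3′ counts depend on the end of each transcript, levels were compared within a gene and not between genes.

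All 8 genes are protein-coding on mm10, with positions from GENCODE M21. The scavenger and endocytic receptors are Mrc1 (ENSMUSG00000026712, chr2:14229392-14332057, plus strand), Stab1 (ENSMUSG00000042286, chr14:31139013-31168641, minus), Cd163 (ENSMUSG00000008845, chr6:124304656-124330527, plus), Msr1 (ENSMUSG00000025044, chr8:39581685-39642673, minus) and Cd36 (ENSMUSG00000002944, chr5:17781690-17888801, minus). The TAM receptors are Mertk (ENSMUSG00000014361, chr2:128698956-128802894, plus) and Axl (ENSMUSG00000002602, chr7:25757273-25788705, minus), and their ligand is Gas6 (ENSMUSG00000031451, chr8:13465374-13494490, minus). Stab1 overlaps Nt5dc2 and Gas6 overlaps Tmem255b on the opposite strand, and Mertk overlaps an antisense gene and a small nucleolar RNA, and Mrc1 a miRNA on its own strand. Whether the counting used the strand was not given in the sources used here, so reads in these overlaps could be split.

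Promoter windows came from RefSeq (build GRCm38.p6, the same coordinates as mm10), where 7 of the 8 genes, all but Msr1, were matched by symbol. The 250 bases before the start are shown for Stab1, Gas6 and Mrc1, the members whose level over both libraries was highest in the C1q/Ccl8 state described below. Capitals mark matches on either strand of the core motif of the macrophage factor PU.1 (GAGGAA) or of the core of the MAF motif (TGCTGA).
Stab1 (chr14:31168642-31168891, minus strand): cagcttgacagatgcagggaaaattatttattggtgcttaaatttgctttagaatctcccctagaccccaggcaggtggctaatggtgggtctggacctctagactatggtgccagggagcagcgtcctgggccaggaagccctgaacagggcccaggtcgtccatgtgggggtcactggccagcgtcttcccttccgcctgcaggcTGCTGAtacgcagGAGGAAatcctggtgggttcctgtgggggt
Gas6 (chr8:13494536-13494785, minus strand): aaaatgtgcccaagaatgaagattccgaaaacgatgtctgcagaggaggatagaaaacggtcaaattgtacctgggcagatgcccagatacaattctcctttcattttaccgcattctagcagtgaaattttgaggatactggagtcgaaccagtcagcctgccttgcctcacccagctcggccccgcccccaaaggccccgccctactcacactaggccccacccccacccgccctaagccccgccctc
Mrc1 (chr2:14229164-14229413, plus strand): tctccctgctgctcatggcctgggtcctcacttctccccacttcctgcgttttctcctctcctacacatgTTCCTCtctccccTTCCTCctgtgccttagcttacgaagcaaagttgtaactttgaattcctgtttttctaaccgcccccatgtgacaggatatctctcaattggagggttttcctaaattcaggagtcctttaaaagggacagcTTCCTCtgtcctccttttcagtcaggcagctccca
The Mrc1 window held 3 matches of the PU.1 core, which begin 180, 167 and 35 bases before the start. The Stab1 window held 1 match of the PU.1 core, beginning 30 bases before the start, and 1 of the MAF core, beginning 43 bases before it, with no shared base. The Gas6 window held none of the motifs searched, which also took in AP-1 (TGANTCA), the E-box (CACGTG) and the nuclear receptor core (AGGTCA). Of the other windows, that of Axl held 1 PU.1 core, that of Cd36 held 1 MAF core and 1 nuclear receptor core, and those of Cd163 and Mertk held none. The Cd36 window (chr5:17835897-17836146, minus strand) lies inside the gene span given above, so it precedes a start within that span. Among all 32851 promoters of the table, 23.3% held the PU.1 core in these 250 bases, 16.1% the MAF core, 14.0% the nuclear receptor core, 6.75% AP-1 and 6.02% the E-box. A match is a string of letters and says nothing of binding.

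The receptors and the ligand were found mostly in the monocyte/macrophage-like cells, and Axl less so than the others. These cells held between 94.6% (Mrc1) and 98.4% (Mertk) of the UMIs of Mrc1, Stab1, Msr1, Cd36, Mertk and Gas6 in shSdc1, and between 92.1% (Msr1) and 100% (Mertk) in shRFP. For Axl they held 81.8% of 318 UMIs in shSdc1 and 75.8% of 302 in shRFP. The cDC2-like cells held a further 3.1% of the Axl UMIs in shSdc1 and 11.9% in shRFP. Neutrophil-like cells held 4.48% of the Msr1 UMIs and 3.32% of the Cd36 UMIs in shRFP, but were only 46 cells in shSdc1, too few to compare. T and NK cell-like cells, which should lack the scavenger receptors, gave the background. With 500 UMIs drawn from each cell, which leaves out 1186 of 2022 (shSdc1) and 806 of 1167 (shRFP) shallower T and NK cell-like cells, the share with a UMI of Mrc1, Stab1, Msr1 or Cd36 was at most 0.359% in shSdc1 and 0.277% in shRFP. Without drawing, at a median of 433 UMIs per cell in shSdc1 and 392 in shRFP, against 678 and 737 in the monocyte/macrophage-like cells, the largest such share was that of Stab1, 0.692% in shSdc1 and 0.771% in shRFP. The share for Axl was 0.598% in shSdc1 and 1.66% in shRFP after drawing.

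Cd163, the receptor for haemoglobin bound to haptoglobin, was hardly seen. Over all barcodes it had 5 UMIs in shSdc1 and 6 in shRFP, and in the monocyte/macrophage-like cells 2 and 6. With 500 UMIs drawn per cell, 0.112% (interval 0.0136 to 0.405%) of the monocyte/macrophage-like cells in shSdc1 and 0.0888% (0.0108 to 0.321%) in shRFP had a UMI. No ratio is drawn from these counts, and the other 7 members are the ones called measured below (at least 20 UMIs in both libraries together).

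Stab1 encodes stabilin-1, a scavenger receptor of alternatively activated macrophages that takes up modified lipoproteins and also binds phosphatidylserine. In monocyte/macrophage-like cells it had 1205 UMIs in shSdc1 (573 CPM, interval 541 to 606) and 738 UMIs in shRFP (299 CPM, 278 to 321), a ratio of 1.92 (1.75 to 2.10). Its level was highest in the C1q/Ccl8 state, at 883 CPM (910 UMIs) in shSdc1 and 735 CPM (375 UMIs) in shRFP. That state stood apart from the next, the interferon state at 486 CPM in shSdc1 and 439 CPM in shRFP, in both libraries. The Gpnmb/Gdf15 and cycling states came next with overlapping intervals, between 342 and 346 CPM in shSdc1 and between 292 and 384 CPM in shRFP. The inflammatory, hypoxia, monocyte and Retnla states were at 137 CPM or less in shSdc1 and at 117 CPM or less in shRFP. Within the C1q/Ccl8 state the ratio was 1.20 (1.06 to 1.36). Over the 5 clusters of that state the Stab1 ratio ran between 1.02 and 1.63, and its interval held 1 in clusters 1 and 5.

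Mrc1 encodes the mannose receptor CD206, which binds glycoproteins with exposed mannose. It had 807 UMIs in shSdc1 (384 CPM, 358 to 411) and 768 in shRFP (311 CPM, 289 to 334) in monocyte/macrophage-like cells, a ratio of 1.23 (1.12 to 1.36). In the C1q/Ccl8 state it was at 478 CPM in shSdc1 and 492 CPM in shRFP, and in the interferon state at 398 and 407 CPM, so that in neither state did the libraries differ beyond counting error. The Gpnmb/Gdf15 state was the exception. There Mrc1 had 64 UMIs in shSdc1 (291 CPM, 224 to 372) and 153 in shRFP (526 CPM, 446 to 616), a ratio of 0.554 (0.407 to 0.746). Both clusters of that state had a ratio under 1, at 0.526 (0.365 to 0.747) in cluster 7 and 0.639 (0.343 to 1.15) in cluster 10. In shRFP the Gpnmb/Gdf15 state was the first of all states for Mrc1, although its interval overlapped that of the C1q/Ccl8 state, whereas in shSdc1 it was the fourth. When the members and listed genes were used in the clustering, the interferon state led for Mrc1 over both libraries. The Retnla state held 345 CPM in shSdc1 and 330 CPM in shRFP. Among dendritic cells Mrc1 was at 119 CPM (15 UMIs) in shSdc1 and 118 CPM (32 UMIs) in shRFP in cDC2-like cells, above the 3.27 and 6.60 CPM of T and NK cell-like cells.

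Msr1 encodes scavenger receptor A, which binds acetylated lipoproteins. It had 591 UMIs in shSdc1 (281 CPM, 259 to 304) and 761 in shRFP (308 CPM, 287 to 331) in monocyte/macrophage-like cells, and the ratio of 0.912 (0.818 to 1.02) did not differ from 1 beyond counting error. Over all kept cells the Msr1 ratio was 0.710 (0.638 to 0.789), where monocyte/macrophage-like cells made up 47.9% of the cells in shSdc1 and 57.3% in shRFP. The Gpnmb/Gdf15 state held most, at 505 CPM in shSdc1 and 406 CPM in shRFP, followed with overlapping intervals by the inflammatory state at 371 and 353 CPM. The monocyte state differed between the libraries, with 3 UMIs in shSdc1 (48.2 CPM, 9.93 to 141) and 62 in shRFP (216 CPM, 166 to 277), a ratio of 0.223 (0.0447 to 0.682) that rests on those 3 UMIs. In the Retnla state Msr1 was at 93.0 CPM (14 UMIs) in shSdc1 and 206 CPM (30 UMIs) in shRFP, a ratio of 0.451 (0.221 to 0.877).

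Cd36 encodes a class B scavenger receptor that takes up oxidised lipoproteins and long-chain fatty acids. It had 1104 UMIs in shSdc1 (525 CPM, 494 to 557) and 1041 in shRFP (421 CPM, 396 to 448) in monocyte/macrophage-like cells, a ratio of 1.25 (1.14 to 1.36). Its order of states was unlike that of Stab1. The Gpnmb/Gdf15 and hypoxia states led in both libraries, with 1348 and 1096 CPM in shSdc1 and 667 and 855 CPM in shRFP, and their intervals overlapped. The inflammatory state followed at 719 CPM in shSdc1 and 506 CPM in shRFP, the C1q/Ccl8 state was at 382 and 345 CPM, and the monocyte state at 80.3 and 73.2 CPM. The interval of the ratio lay above 1 in the Gpnmb/Gdf15 state, where Cd36 had 296 UMIs in shSdc1 and 194 in shRFP (2.02, 1.68 to 2.43), and in the inflammatory state with 124 and 343 UMIs (1.42, 1.15 to 1.75), and held 1 in the other states. Within the Gpnmb/Gdf15 state the ratio was 2.03 (1.66 to 2.49) in cluster 7 and 1.93 (1.19 to 3.19) in cluster 10. In that state Cd36 was thus higher and Mrc1 lower in shSdc1 than in shRFP. With 500 UMIs drawn per cell, 45.8% of 192 cells of the state in shSdc1 (interval 38.6 to 53.2%) and 22.2% of 261 in shRFP (17.3 to 27.8%) had a UMI of Cd36, against 8.85% (5.24 to 13.8%) and 21.5% (16.6 to 26.9%) for Mrc1. This leaves out 131 shallower cells in shSdc1 and 73 in shRFP. Without drawing, the shares were 45.8% and 31.7% for Cd36 and 14.6% and 26.9% for Mrc1. The summed dissociation stress genes in this state were at 14564 CPM in shSdc1 and 15401 CPM in shRFP.

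**Figure D1:**
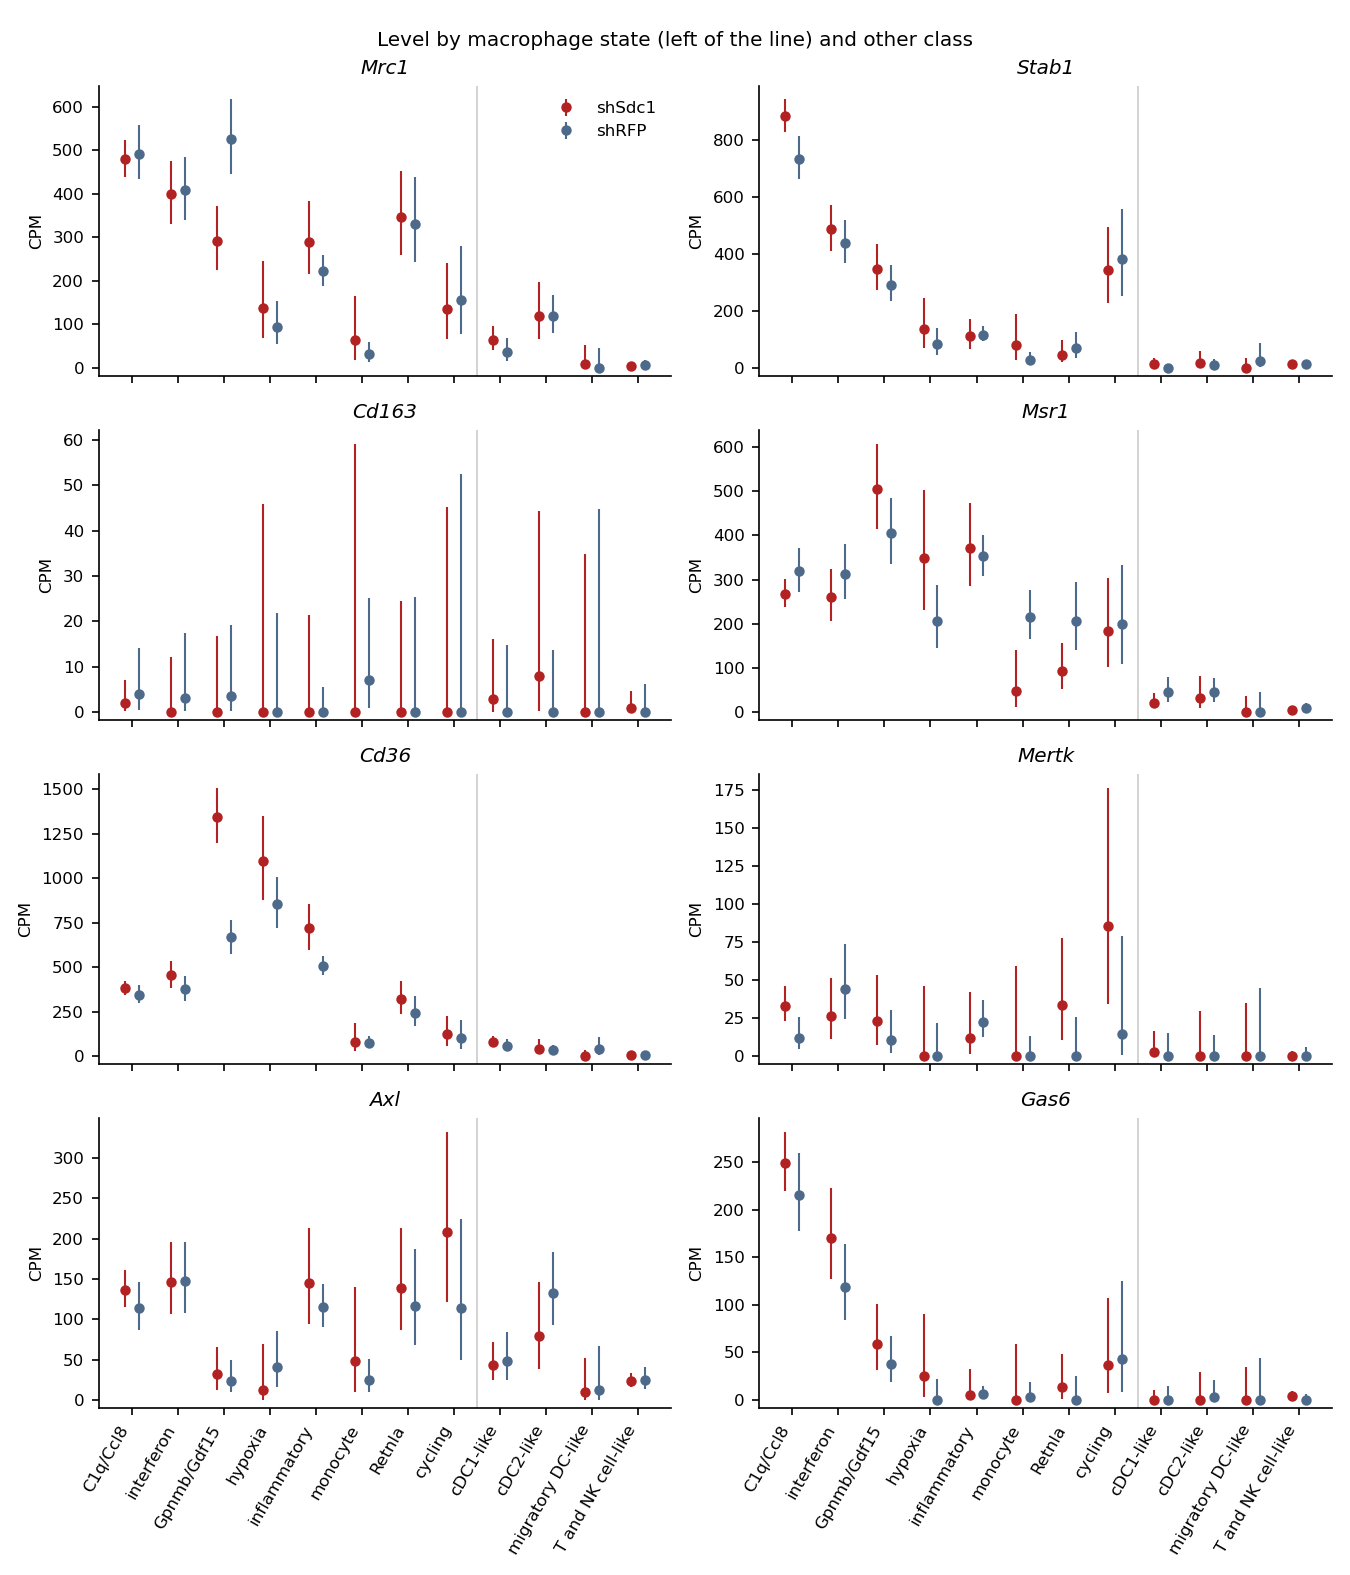
Level of each of the 8 genes (CPM, 1 panel per gene with its own axis) in the 8 states of the monocyte/macrophage-like cells, left of the grey line, and in other classes, right of it, for the shSdc1 library (red) and the shRFP library (blue). Points are 1 library each and bars are 95% exact Poisson intervals of counting error; Stab1 and Gas6 peak in the C1q/Ccl8 state and Cd36 and Msr1 peak in the Gpnmb/Gdf15 or hypoxia state.

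Mertk encodes the receptor tyrosine kinase by which macrophages take up dying cells in resting tissue. It was sparse, with 61 UMIs in shSdc1 (29.0 CPM, 22.2 to 37.2) and 39 in shRFP (15.8 CPM, 11.2 to 21.6) in monocyte/macrophage-like cells, a ratio of 1.84 (1.21 to 2.82). In the C1q/Ccl8 state it had 34 UMIs in shSdc1 (33.0 CPM) and 6 in shRFP (11.8 CPM), a ratio of 2.81 (1.16 to 8.18). In the interferon state it had 8 UMIs in shSdc1 (26.1 CPM) and 14 in shRFP (43.9 CPM), a ratio of 0.595 (0.216 to 1.52), whose interval held 1. The cycling state was first in shSdc1 at 85.6 CPM, on 7 UMIs, and had 1 UMI in shRFP. No Mertk UMI was found in cDC2-like, migratory DC-like or T and NK cell-like cells of either library, which in T and NK cell-like cells allows up to 2.45 CPM in shSdc1 and 4.95 CPM in shRFP (3 UMIs). The direction over the class was the same in every alternative tried, but in cells with at least 500 detected genes the ratio was 1.07, under the fold used for a call.

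Axl encodes the TAM receptor that inflammatory signals raise in myeloid cells. It had 260 UMIs in shSdc1 (124 CPM, 109 to 140) and 229 in shRFP (92.7 CPM, 81.1 to 106) in monocyte/macrophage-like cells, a ratio of 1.33 (1.11 to 1.60). With 500 UMIs drawn from each cell the ratio was 1.68, past 1.5-fold. Its order of states was flat at the top. The interferon, inflammatory, Retnla, C1q/Ccl8 and cycling states lay between 137 and 208 CPM in shSdc1 and between 114 and 147 CPM in shRFP with overlapping intervals. The Gpnmb/Gdf15 state was at 31.9 CPM (7 UMIs) in shSdc1 and 24.1 CPM (7 UMIs) in shRFP, close to the 23.7 and 24.7 CPM of T and NK cell-like cells. Among dendritic cells Axl was at 79.5 CPM (10 UMIs) in shSdc1 and 133 CPM (36 UMIs) in shRFP in cDC2-like cells, a ratio of 0.599 (0.265 to 1.23) whose interval held 1.

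Gas6, the bridging ligand, had 330 UMIs in shSdc1 (157 CPM, 140 to 175) and 167 in shRFP (67.6 CPM, 57.7 to 78.7) in monocyte/macrophage-like cells, a ratio of 2.32 (1.92 to 2.81). It was at 249 CPM (257 UMIs) in shSdc1 and 216 CPM (110 UMIs) in shRFP in the C1q/Ccl8 state, at 170 and 119 CPM in the interferon state, and at 59.2 and 37.8 CPM in the Gpnmb/Gdf15 state. The inflammatory state, by contrast, held 1 Gas6 UMI among 177 cells in shSdc1 and 4 among 685 cells in shRFP. The monocyte state held 0 and 1, and the cDC1-like and migratory DC-like cells held none in either library, which in cDC1-like cells allows up to 8.67 CPM in shSdc1 and 12.1 CPM in shRFP. Within the C1q/Ccl8 state the ratio was 1.16 (0.922 to 1.46) and within the interferon state 1.43 (0.920 to 2.23), so in neither state did the libraries differ beyond counting error. The receptor Axl and the ligand thus had different orders of states: the inflammatory state held 145 CPM of Axl in shSdc1 and 115 CPM in shRFP, against 5.80 and 5.90 CPM of Gas6.

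Set side by side, 3 of the 7 measured members (Stab1, Mertk and Gas6) were at least 1.5-fold higher in shSdc1 and none was at least 1.5-fold lower in the monocyte/macrophage-like cells. Among all 9319 genes with at least 20 UMIs there, 13.5% were at least 1.5-fold higher and 8.17% at least 1.5-fold lower. The median log2 ratio was 0.41 over the 7 members and 0.07 over all measured genes. Over all kept cells the same 3 members were past the fold, Stab1 at 1.56, Mertk at 1.53 and Gas6 at 1.92, and none was lower, where 15.3% of measured genes were higher and 5.9% lower. The states that make up the class differed between the libraries: the C1q/Ccl8 state held 49.8% of the class's cells in shSdc1 and 19.1% in shRFP, the inflammatory state 7.0% and 24.0%, and the monocyte state 4.6% and 18.0%. With the 15 clusters given the same weight in both libraries, the ratio was 1.23 for Stab1, 1.35 for Gas6, 1.55 for Mertk, 0.99 for Mrc1, 0.94 for Msr1, 1.14 for Axl and 1.43 for Cd36. Only Mertk was then past 1.5-fold, where 9.39% of all measured genes were at least 1.5-fold higher and 6.52% at least 1.5-fold lower. The other way round, the mix of clusters alone, with each cluster's level pooled over the libraries, gave a ratio of 1.61 for Stab1, 1.74 for Gas6, 1.27 for Mrc1, 1.30 for Mertk and 0.89 for Cd36. So the ratios of Stab1 and Gas6 were above 1.5 as measured in the class and below 1.5 with the clusters weighted alike. That of Cd36 was larger with the clusters weighted alike than as measured. These weighted ratios are taken over all 15 clusters together, and single clusters differed from them. With 1 library a group, a difference in the cells that entered the library and one between the tumors cannot be told apart.

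State by state, few members passed the fold. In the C1q/Ccl8 state Mertk alone of 7 measured members was higher and none was lower, where 13.7% of genes were higher and 9.7% lower. In the Gpnmb/Gdf15 state Cd36 and Gas6 were higher and Mrc1 lower among 5 members, where 14.6% of genes were higher and 14.3% lower, and the interval of Gas6 (1.56, 0.647 to 3.86) held 1. In the inflammatory state none of 5 members passed the fold either way, where 12.9% of genes were higher and 18.2% lower. In the interferon state Mertk was lower among 7 members (11.2% of genes higher, 12.5% lower), and in the hypoxia state Stab1 and Msr1 were higher among 4 (15.9% and 15.6%), all 3 with intervals that held 1. Msr1 was lower in the Retnla state among 4 members (13.9% and 12.8%) and in the monocyte state among 2 (15.6% and 22.3%), and Axl was higher in the cycling state among 4 (13.7% and 14.3%) with an interval that held 1. In dendritic cells, Mrc1 was higher among 3 members in cDC1-like cells (15.5% and 12.3%) at 63.6 CPM in shSdc1 and 36.1 CPM in shRFP, and Axl was lower among 2 members in cDC2-like cells (10.7% and 15.6%), with intervals that held 1. No member reached 20 UMIs in migratory DC-like cells.

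**Figure D2:**
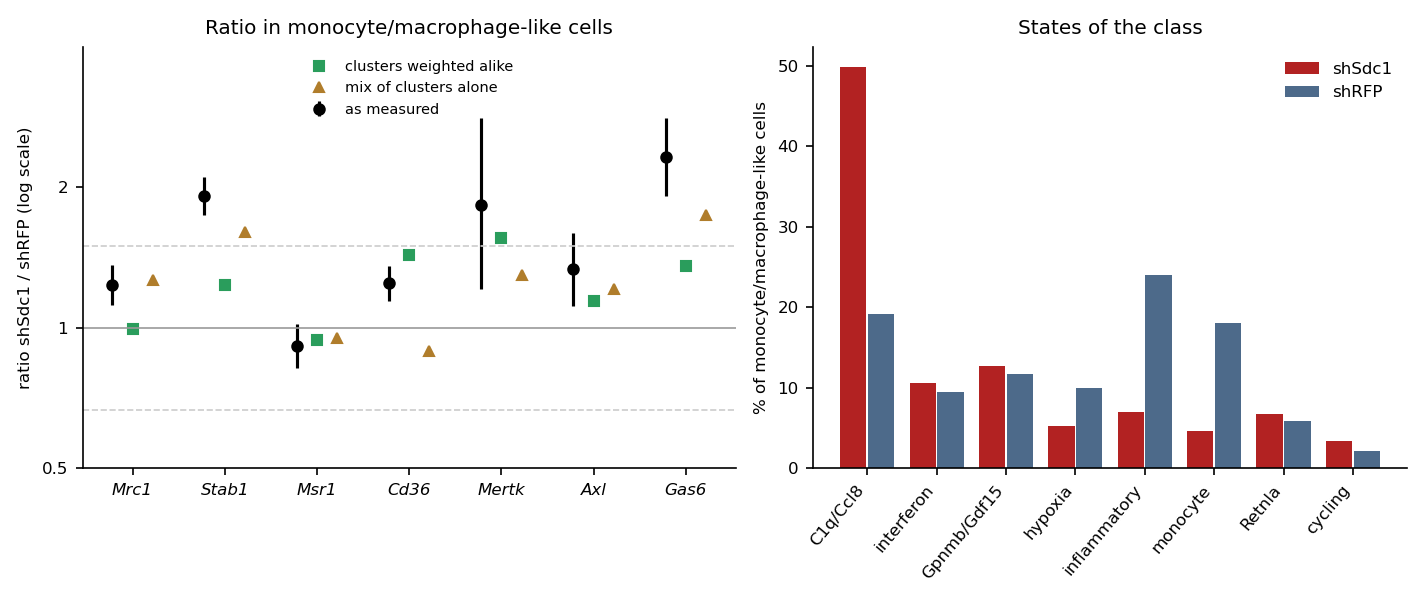
Left, ratio of each of the 7 measured members in monocyte/macrophage-like cells (shSdc1 over shRFP, log axis): as measured with its 95% counting interval (black), with the 15 clusters weighted alike (green) and from the mix of clusters alone (brown), dashed lines at 1.5-fold. Right, share of the class's cells in each state in shSdc1 (red) and shRFP (blue), where the C1q/Ccl8 state holds 49.8% and 19.1%; 1 library per group, so no error is drawn.

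Other readings moved with the libraries and their part in these ratios was not tested. The 18 dissociation stress genes summed to 9367 CPM in shSdc1 and 15922 CPM in shRFP in the monocyte/macrophage-like cells, 5942 and 9518 CPM in the C1q/Ccl8 state. Of the 10 melanoma markers, 8 had a UMI in the class in each library, 221 in shSdc1 (105 CPM) and 152 in shRFP (61.5 CPM), with Sox10 and Gpr143 at 0. Mitf, which macrophages also express, made up 102 of these UMIs in shSdc1 and 116 in shRFP, and without it the markers had 119 UMIs in shSdc1 (56.6 CPM) and 36 in shRFP (14.6 CPM), a ratio of 3.88 (2.65 to 5.80). The hypoxia state carried 1059 CPM of the 10 markers in shSdc1 and 171 CPM in shRFP, or 922 and 118 CPM without Mitf. Without that state the ratio was 1.88 for Stab1 and 2.23 for Gas6. Stab1 is also known from endothelium. The 8 endothelial markers summed to 21.9 CPM in shSdc1 and 24.7 CPM in shRFP, with Cldn5, Tie1, Tek and Emcn at 0. Pecam1 had 27 UMIs in shSdc1 and 49 in shRFP, Kdr 16 and 11, Cdh5 3 and 0, and Egfl7 0 and 1. Of the 5 lymphatic endothelial markers Reln and Mmrn1 were at 0, Prox1 had 0 and 1 UMI, and 183 of 185 UMIs in shSdc1 and 394 of 395 in shRFP were of Pdpn, which macrophages also express. All 6 red cell markers were at 0, 3 of 8 fibroblast markers had UMIs in shSdc1 (4 UMIs) and 1 in shRFP (1 UMI), and Krt10 alone of 6 keratinocyte markers was seen, with 8 UMIs in shSdc1 and 1 in shRFP. The 6 platelet markers held 1891 CPM in shSdc1 and 1310 CPM in shRFP, nearly all Pf4, which macrophages also express, with Gp1bb, Gp9 and Gp5 at 0. Of the 5 Langerhans cell markers 4 had a UMI in each library, 31 UMIs (14.7 CPM) in shSdc1 and 130 (52.6 CPM) in shRFP, with Cd207 at 2 and 0. Il1r2 made up 5 of these UMIs in shSdc1 and 86 in shRFP, and the other markers together had 26 and 44. No single cell held more than 4.92% of a measured member's UMIs in the class in shSdc1 or more than 5.13% in shRFP.

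The shares of cells with a UMI were larger in shSdc1 for 6 of the 7 measured members, and for Msr1 the direction depended on the number of UMIs drawn. With 500 UMIs drawn from each cell, which leaves out 762 of 2545 monocyte/macrophage-like cells in shSdc1 and 602 of 2853 in shRFP, 21.4% (19.5 to 23.4%) of the cells in shSdc1 and 11.1% (9.84 to 12.5%) in shRFP had a UMI of Stab1. For Gas6 the shares were 7.07% (5.92 to 8.36%) and 2.40% (1.81 to 3.12%), for Axl 6.90% and 3.95%, for Cd36 17.9% and 13.8%, for Mrc1 15.1% and 12.0%, and for Mertk 1.12% and 0.578%. Msr1 alone had the smaller share in shSdc1, 10.9% against 13.3% in shRFP, but with 300 UMIs drawn its shares were 8.48% (7.39 to 9.66%) in shSdc1 and 8.33% (7.33 to 9.42%) in shRFP. Without drawing, the shares for Stab1 were 27.7% in shSdc1 and 16.6% in shRFP and for Gas6 10.0% and 4.56%. Within the C1q/Ccl8 state, 33.9% (30.8 to 37.1%) in shSdc1 and 24.9% (20.8 to 29.3%) in shRFP had a UMI of Stab1, and the intervals did not overlap, whereas 10.9% and 8.45% had one of Gas6 with overlapping intervals. With 300 UMIs drawn the Stab1 shares in that state were 22.5% (20.2 to 25.0%) in shSdc1 and 17.4% (14.2 to 20.9%) in shRFP, and those intervals overlapped. The cells left out of that state numbered 386 in shSdc1 and 119 in shRFP. Any of the 8 genes was seen in 56.1% of the drawn monocyte/macrophage-like cells in shSdc1 and 43.2% in shRFP, in 6.67% and 15.0% of those in the monocyte state, and in 1.32% and 2.49% of T and NK cell-like cells.

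**Figure D3:**
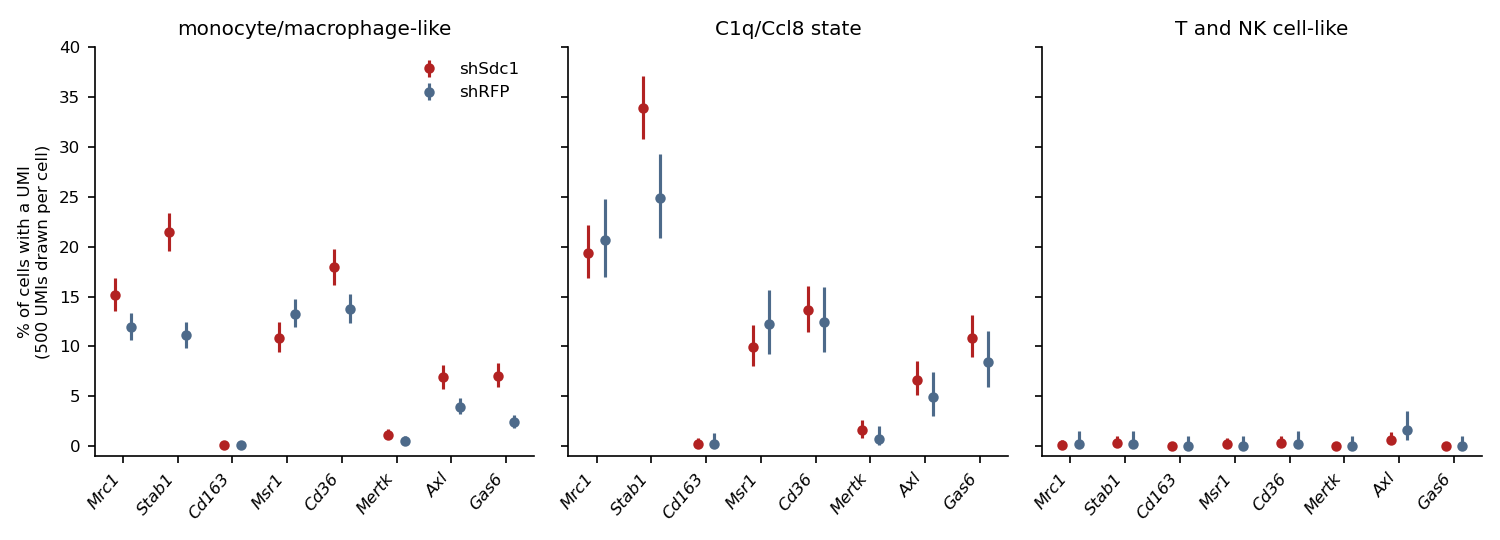
Share of cells with a UMI of each gene after 500 UMIs were drawn from each cell, in all monocyte/macrophage-like cells, in their C1q/Ccl8 state and in T and NK cell-like cells as the background, for shSdc1 (red) and shRFP (blue), with 95% exact binomial intervals. In the class the Stab1 share is 21.4% and 11.1%, and in T and NK cell-like cells all 8 shares are at or under 1.66%.

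Over the whole class, Stab1 and Mrc1 were seen more often in cells with Gas6 than in cells without it. Among drawn monocyte/macrophage-like cells with a UMI of Gas6, 52.4% of 126 in shSdc1 (43.3 to 61.3%) and 42.6% of 54 in shRFP (29.2 to 56.8%) also had one of Stab1, against 19.1% and 10.3% of the cells without Gas6. For Mrc1 the shares were 28.6% with and 14.1% without Gas6 in shSdc1, and 33.3% with and 11.4% without in shRFP. For Cd36 the shares were 19.0% with and 17.9% without Gas6 in shSdc1 and 7 of 54 cells with and 13.8% without in shRFP. For the receptor Axl no difference was detectable at this depth, as 4.76% of the cells with Gas6 and 7.06% of those without it had a UMI of Axl in shSdc1, and 0 of 54 (interval to 6.60%) and 4.05% in shRFP, with overlapping intervals. Within the C1q/Ccl8 state of shSdc1, 58.3% of 96 cells with Gas6 (47.8 to 68.3%) and 30.9% of 786 without it (27.7 to 34.3%) had a UMI of Stab1. For Msr1 the shares there were 18.8% (11.5 to 28.0%) with and 8.91% (7.01 to 11.1%) without Gas6, and for Mrc1 29.2% (20.3 to 39.3%) with and 18.2% (15.6 to 21.1%) without, with overlapping intervals. In shRFP that state held fewer than 50 drawn cells with Gas6, so the share was not taken there. Taken the other way in shRFP, Gas6 was seen in 13.2% of 106 cells with Stab1 (7.41 to 21.2%) and 6.88% without (4.36 to 10.2%). For Msr1 these were 15.4% (6.88 to 28.1%) and 7.49% (5.03 to 10.6%), also overlapping. For Mrc1 they were 17.0% (9.87 to 26.6%) and 6.21% (3.89 to 9.34%), without overlap. In shSdc1 the intervals taken this way overlapped for Mrc1 and not for Stab1 or Msr1. In shSdc1 Cd36 and Msr1 also went together, as 25.8% of 194 cells with Msr1 and 17.0% of those without it had a UMI of Cd36 in shSdc1, and 16.7% of 299 and 13.3% in shRFP, where the intervals overlapped.

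**Figure D4:**
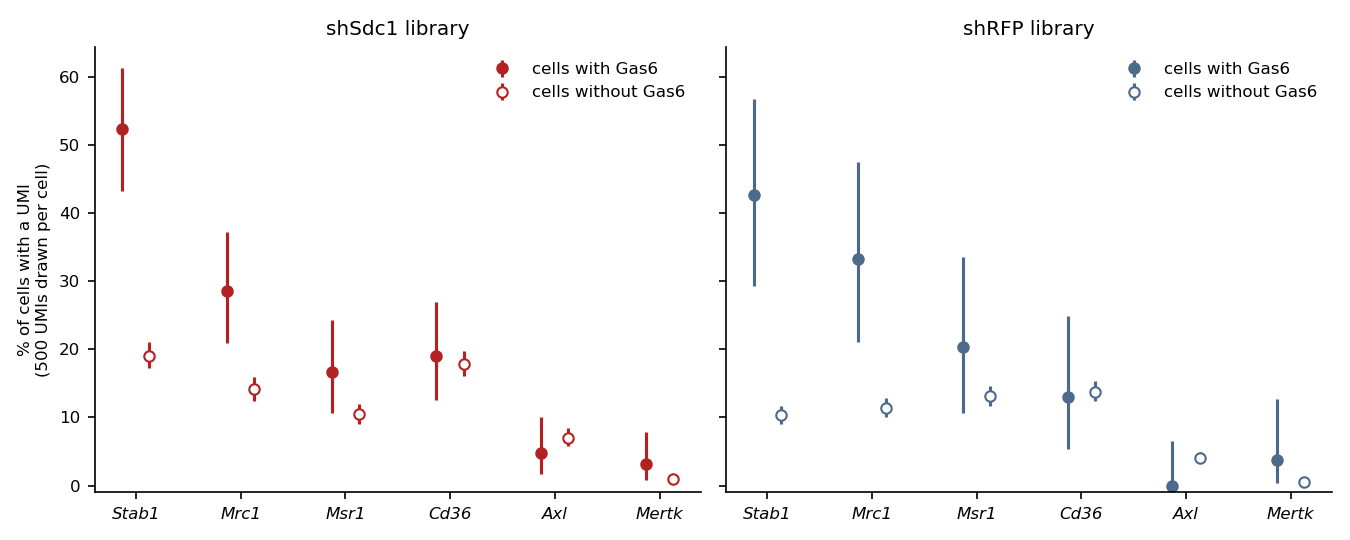
Share of monocyte/macrophage-like cells with a UMI of another member among cells with (filled) and without (open) a UMI of Gas6, 500 UMIs drawn per cell, in the shSdc1 library (left) and the shRFP library (right), with 95% exact binomial intervals. The Stab1 share is 52.4% with and 19.1% without Gas6 in shSdc1, and 42.6% and 10.3% in shRFP.

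The pattern over clusters ordered the members in a similar way. Over 38 points (the myeloid clusters of each library with at least 20 cells), the log2(CPM + 10) of Stab1 and Gas6 had a Pearson correlation of 0.89 and that of Cd36 and Msr1 0.82, while Axl and Cd36 had 0.04. Pairs across these were high too, with Stab1 and Mrc1 at 0.81, Mrc1 and Msr1 at 0.77 and Stab1 and Msr1 at 0.71, while Gas6 and Cd36 had 0.37. The points include clusters of dendritic and neutrophil-like cells. They share 2 libraries and differ in depth, so the values are descriptions. Of 3962 other genes, those most like Stab1 were Ms4a7 (0.95), Apoe and Trem2 (0.92 each), and those most like Gas6 were Cela1 (0.93), Vcam1 (0.92) and Olfml3 (0.91). Plin2, which coats lipid droplets, was most like Cd36 (0.93), followed by the protease Ctsl (0.91) and the protease inhibitor Cstb (0.89). Ctsl (0.93), Cndp2 (0.92) and Sdcbp (0.90) were most like Msr1, and Timp2 (0.92), Lgals1 (0.91) and Ctsd (0.89) most like Mrc1. For the sparser Mertk the first was P2rx4 (0.73), with Slc37a2 and Fblim1 after it (0.71 and 0.69), and for Axl Tex264 (0.70), with Clec4b1 and Fcgr4 after it (0.68 and 0.67).

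Related genes were read in the same monocyte/macrophage-like cells, against 13.5% higher and 8.17% lower among all measured genes. With the clusters weighted alike these shares of all measured genes were 9.39% and 6.52%. Of 28 further scavenger receptors and lectins, 19 were measured, and in shSdc1 6 of them were at least 1.5-fold higher and 2 at least 1.5-fold lower. The median log2 ratio was 0.35. Folr2, a folate receptor of tissue macrophages, was at 140 CPM in shSdc1 and 55.1 CPM in shRFP (2.55, 2.07 to 3.14). Siglec1, the sialic acid-binding receptor of macrophages, was at 35.2 and 16.2 CPM (2.17, 1.46 to 3.28), and Cxcl16, the scavenger receptor for phosphatidylserine and oxidised lipoprotein, at 443 and 265 CPM (1.67, 1.51 to 1.85). The 2 lower genes were Clec4n, which encodes the lectin Dectin-2, at 198 and 534 CPM (0.370, 0.331 to 0.413), and Cd14, the co-receptor for lipopolysaccharide, at 674 and 1444 CPM (0.466, 0.438 to 0.496). Cd68 stayed within 1.5-fold at 1169 CPM in shSdc1 and 896 CPM in shRFP. With the clusters weighted alike, 6 of the 19 were higher and 2 lower, but not all were the same genes. Folr2 at 1.72 and Clec4n at 0.631 were among them, whereas Siglec1 at 1.45, Cxcl16 at 1.20 and Cd14 at 0.815 were not. Some of these weighted ratios rested on few UMIs. Colec12 at 4.22 had 16 UMIs in shSdc1 and 6 in shRFP, and Marco at 0.451 had 8 and 14, both named after their values were seen.

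Of 22 further genes of phosphatidylserine recognition and bridging, 15 were measured, of which 3 were higher and 2 lower. Their median log2 ratio was 0.11. The integrin chain Itgb5 was at 136 CPM in shSdc1 and 78.9 CPM in shRFP (1.73, 1.44 to 2.08), Cd300ld at 91.7 and 58.7 CPM (1.56, 1.25 to 1.95), and Pros1, the other TAM ligand, at 23.8 and 15.0 CPM (1.59, 1.02 to 2.50). Thbs1, which encodes the matrix protein thrombospondin-1, was at 771 and 2000 CPM (0.386, 0.364 to 0.408), and Mfge8, a bridging protein named after its values were seen, had 15 UMIs in shSdc1 and 28 in shRFP. Tyro3, the remaining TAM receptor, had 1 UMI in shSdc1 and 0 in shRFP, and Timd4, a phosphatidylserine receptor of resident macrophages, 0 and 1. With the clusters weighted alike, Cd300ld at 1.56 and Mfge8 at 0.601 were past 1.5-fold, whereas Thbs1 was at 0.788, Itgb5 at 1.35 and Pros1 at 1.38. The mix of clusters alone gave 0.470 for Thbs1. Of 24 genes of the engulfment machinery, 23 were measured, of which 2 were higher, 1 lower and 20 within 1.5-fold. The median log2 ratio was 0.03. Abca1 was at 154 CPM in shSdc1 and 102 CPM in shRFP (1.52, 1.28 to 1.79), Wdfy3 at 55.6 and 33.2 CPM (1.68, 1.25 to 2.25) and Slc2a1, the glucose transporter, at 174 and 294 CPM (0.591, 0.520 to 0.671). None of the 23 was past 1.5-fold with the clusters weighted alike, where Abca1 was at 1.22, Wdfy3 at 1.25 and Slc2a1 at 0.835. Of the 10 measured genes of receptor shedding and TAM signalling, all were within 1.5-fold, among them the adaptor Grb2 at 339 and 329 CPM.

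Lipid handling was the list with the most genes past the fold on the higher side, 7 of 20 measured genes and none lower, at a median log2 ratio of 0.16. Among these 7 is Abca1, which was also counted in the engulfment machinery. Apoe, which carries lipid out of macrophages, was at 11036 CPM in shSdc1 and 4396 CPM in shRFP (2.51, 2.45 to 2.57), and the phospholipid transfer protein Pltp at 323 and 122 CPM (2.64, 2.31 to 3.04). Trem2, a lipid-sensing receptor, was at 691 and 412 CPM (1.68, 1.55 to 1.82), and Nr1h3, which encodes the oxysterol receptor LXRα, at 55.6 and 29.1 CPM (1.91, 1.41 to 2.60). Fabp5 stayed within 1.5-fold at 1495 and 1315 CPM. With the clusters weighted alike, 3 of the 20 were past 1.5-fold, with Apoe at 1.51, Pltp at 1.86 and Nr1h3 at 1.58 against 1.22 for Trem2. In haemoglobin and haem clearance 11 genes were measured, 1 was higher (Blvrb, 365 and 221 CPM) and 1 lower (Hp, 13.3 and 91.9 CPM), and Fth1 was level at 23773 and 23784 CPM. With the clusters weighted alike 2 genes were lower, Hp at 0.474 and Slc40a1 at 0.574. Slc40a1, named after its values were seen, was at 0.975 as measured. Blvrb, at 1.23 with the clusters weighted alike, was no longer past the fold. Of the 10 measured genes on the list of inhibitory phagocytic signals, 1 was higher and 2 lower. The role of each listed gene in phagocytosis was not checked here. The higher one was Lilra5 (17 and 10 UMIs, named after its values were seen). The lower ones were Cd24a at 35.2 CPM in shSdc1 and 69.2 CPM in shRFP and Pecam1 at 12.8 and 19.8 CPM. Sirpa, the receptor for the signal Cd47, was at 606 and 428 CPM (1.41, 1.30 to 1.54). None of these 10 was past the fold with the clusters weighted alike, where Cd24a was at 0.855 and Pecam1 at 0.966.

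Of 18 transcription factors of tissue macrophages, all measured, 2 were higher (Nr1h3 and Pparg, Pparg at 43.2 CPM in shSdc1 and 27.1 CPM in shRFP) and 4 lower. Nr1h3 and Pparg are also on the lipid handling list and were already counted as higher there. The lower ones were Atf3 at 560 and 1102 CPM, Cebpb at 1213 and 2117 CPM, Bhlhe40 at 151 and 277 CPM and Klf4 at 132 and 219 CPM. With the clusters weighted alike, Nr1h3 alone was higher and Atf3 (0.646) alone lower, while Cebpb was at 0.802, Bhlhe40 at 0.832, Klf4 at 0.891 and Pparg at 1.38. Of the 18 dissociation stress genes, 11 were lower and none higher. Their median log2 ratio was -0.64. Among the lower ones were Hspa1a at 664 CPM in shSdc1 and 1706 CPM in shRFP, Hspa1b at 638 and 1565 CPM, Hspb1 at 50.4 and 129 CPM and Nr4a1 at 182 and 391 CPM, while Dusp1 was at 958 and 1391 CPM. Atf3 is on both of these lists. With the clusters weighted alike, 6 of the 18 were lower, the heat shock genes Hspa1a (0.406), Hspa1b (0.432), Hspb1 (0.427) and Dnajb1 (0.492) with Atf3 and Jun (0.660), at a median log2 ratio of -0.25, while Nr4a1 was at 0.838 and Dusp1 at 1.02.

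**Figure D5:**
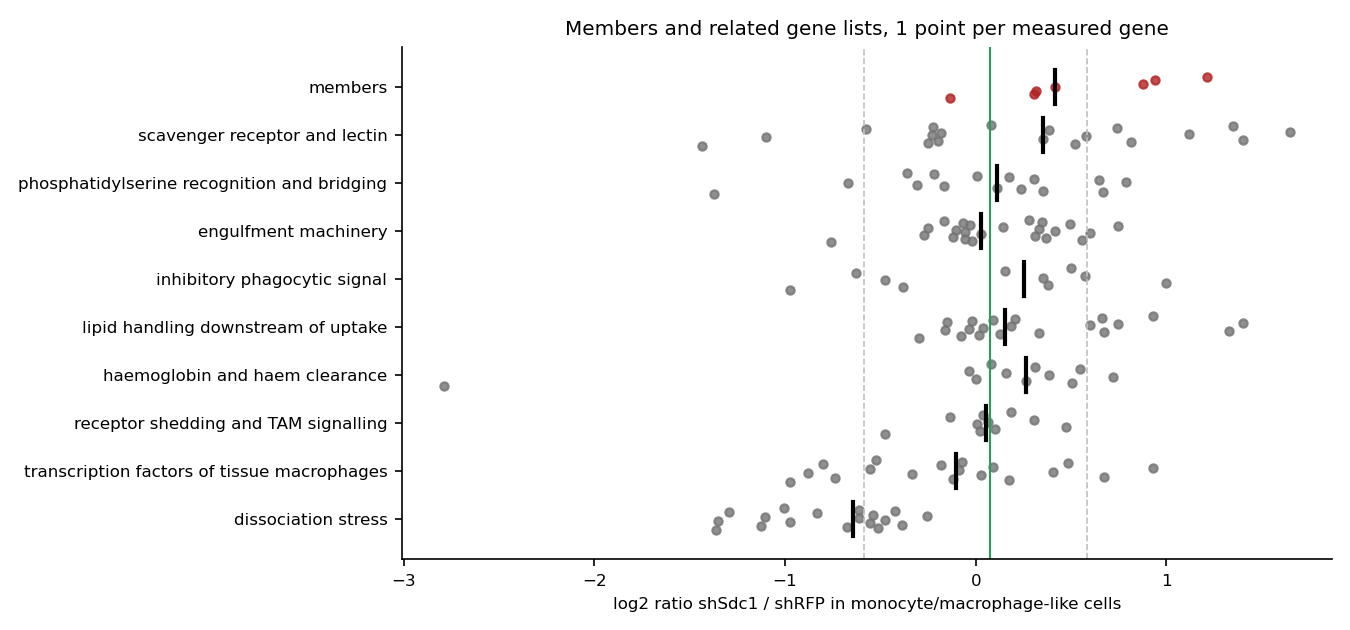
Log2 ratio shSdc1 over shRFP in monocyte/macrophage-like cells for the 7 measured members (red) and the measured genes of 9 related lists (grey), 1 point per gene, with the list's median (black), the median of all measured genes at 0.07 (green) and 1.5-fold (dashed). The median is 0.41 for the members and -0.64 for dissociation stress; 1 library per group, so no test.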

How the data were processed

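Live CD45+ cells of 1 shSdc1 and 1 shRFP library had been sequenced with a 10x 3′ kit, per the labels' protocols. The authors deposited unnormalized counts of UMIs for every gene and barcode. Per the file headers these came from Cell Ranger 6.1.1, and per the submitters' processing notes from mm10. Which annotation they used was not given in the sources used here, and 31107 of 31253 feature identifiers matched GENCODE M21. The rest was computed here. Barcodes with at least 200 genes and under 10% mitochondrial UMIs were kept, 5576 in shSdc1 and 5225 in shRFP. The automatic threshold of Scrublet marked 0 and 1 barcodes, too few, so the highest scores were removed at 0.8% per 1000 barcodes, 263 and 242. The libraries shared 20 barcode sequences, treated as separate cells.

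Cells of both libraries were clustered together without integration (scanpy 1.11.5: 10000 UMIs per cell, log, 2000 variable genes, 30 components, 15 neighbours, Leiden resolution 1) without the members, the listed genes and mitochondrial, ribosomal and receptor variable genes. Myeloid cells were clustered again at resolution 2, a choice made after seeing the data, because at resolution 1 dendritic cell classes shared a cluster. Names came from marker lists (mean log2 fold of at least 0.5, with 3 markers at 2-fold), by a scoring rule also set after seeing the data. UMIs were summed per library and class. Counting intervals are exact (Poisson, binomial, conditional binomial, 95%). Genes with at least 20 UMIs were measured, and 1.5-fold was called. From each list, up to 4 higher and 4 lower genes with at least 50 UMIs and the one within 1.5-fold with most UMIs are named; Tyro3, Timd4 and the markers were named besides. Shares used 500 UMIs drawn per cell. Genes like a member had at least 200 UMIs in clusters of at least 20 cells. Alternatives included TMM scaling (edgeR 4.0.16). Of the listed and marker symbols, 2 had no match. The ratio and interval code was tested on simulated data. The members and lists were chosen with earlier results of these data known.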

Additional observations from a re-analysis of the deposited data

Results flagged for a closer look

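Barcodes outside the filter on genes and mitochondrial UMIs, which no comparison above used, held more of 4 members in shSdc1 than in shRFP, with intervals above 1. The ratio was 2.57 for Mrc1 (23 UMIs in shSdc1 and 14 in shRFP), 2.83 for Stab1 (47 and 26), 2.61 for Msr1 (15 and 9) and 3.13 for Gas6 (14 and 7). The largest lower bound was that of Stab1, 1.72, and the smallest that of Msr1, 1.07. In the monocyte/macrophage-like cells the Msr1 ratio lay on the other side of 1, at 0.912. Outside the filter Cd36 (1.96, 0.963 to 4.04) and Axl (2.35, 0.557 to 11.3) were also above 1, with intervals that held 1. Mertk had 3 UMIs there in shSdc1 and 0 in shRFP. The share of all genes with such ratios in these barcodes was not taken, so the 4 members cannot be set against it. The cell types of these barcodes were not determined, and nothing was tested.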

How the results depend on the processing

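With 1 library per group no replicate could be left out. No paired analysis was possible because each group holds 1 library and no result comes from a test. Of 16 alternatives to each member's ratio, the cut at 500 detected genes per cell moved 5 beyond their counting interval: Mrc1 to 1.04, Stab1 to 1.55, Msr1 to 0.813, Mertk to 1.07 and Gas6 to 1.75. Weighting the clusters alike gave 0.992 for Mrc1, 1.23 for Stab1, 1.43 for Cd36 and 1.35 for Gas6. Drawing 500 UMIs per cell gave 2.17 for Stab1, 0.794 for Msr1, 1.68 for Axl and 2.92 for Gas6, and the mean over cells of UMIs per 10000 gave 1.43 for Mrc1, 2.31 for Stab1 and 2.95 for Gas6. The cause was not tested. No ratio called past 1.5-fold changed direction. TMM and median-of-ratios scaling lowered all log2 ratios by 0.08 and 0.11. Another Leiden seed, resolution 0.5, doublets kept, members used in the clustering and 3 alternatives added after seeing the data (myeloid resolution 1, no hypoxia state, no monocyte state) kept every ratio within its interval.

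Of the 137 measured listed genes, 19 were higher and 22 lower past 1.5-fold, where 13.5% and 8.17% of all measured genes were. With the clusters weighted alike 10 were higher and 11 lower, where 9.39% and 6.52% of all measured genes were. Past 2-fold 6 were higher and 10 lower, and the share of all genes past 2-fold was not taken. The state with the highest level over both libraries was that of the main clustering for 3 of 7 members at myeloid resolution 0.5. Over the 5 other clusterings tried, Stab1 and Gas6 were highest in the C1q/Ccl8 state in each, Mrc1 in all but the one that used the members and listed genes, where it was highest in the interferon state, Msr1 and Cd36 in the Gpnmb/Gdf15 state in all but that at resolution 0.5, and Mertk and Axl in changing states. The share of cells with a UMI was larger in shSdc1 for 7 of the 8 genes with 500 UMIs drawn, for 8 with 300 and for 6 without drawing. At medians of 593 (shSdc1) and 650 (shRFP) UMIs per cell, Cd163 and Mertk are near the limit of detection.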
